A study of Mus musculus with 6 samples.

Results

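The genes described here are 10 components of the unfolded protein response of the endoplasmic reticulum (ER): Hspa5, Hsp90b1, Dnajb9, Calr, Pdia4, Sdf2l1, Herpud1, Xbp1, Edem1 and Creld2. They were picked by gene name from 19613 genes measured on Affymetrix mouse exon arrays, and all 10 of 10 names were found. The 6 arrays form a single group, named in the labels as replicates 2, 4, 5, 6, 7 and 8. Each holds RNA from embryoid bodies that contain spinal motor neurons, grown from mouse embryonic stem cells with a green fluorescent reporter driven by the motor neuron gene Hb9 (Mnx1) and directed by retinoic acid and a Hedgehog agonist. The cultures were exposed for a day to blood fluid of male mice of the Huntington's disease strain B6CBA-Tg(HDexon1)62Gpb/3J, which carry a transgene with the start of the human huntingtin gene, at a presymptomatic age. The sample labels call the fluid plasma, whereas the series title and the study's methods call it serum. No control arrays were analysed here, so the values are levels and covariation over the arrays and not a response to the fluid.

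The unfolded protein response is set off when misfolded proteins build up in the ER, where secreted and membrane proteins are folded. It has 3 arms, named for the sensors IRE1, PERK and ATF6. IRE1 splices Xbp1 messenger RNA, and ATF6 is cut in the Golgi. The factors so released raise ER chaperones and the machinery of ER-associated degradation, which returns misfolded proteins to the cytosol. PERK lowers general translation while raising translation of ATF4, which then turns on genes of amino acid supply and the factor CHOP, encoded by Ddit3. Other kinases also feed into ATF4. The response has been much studied in motor neurons and their diseases. An array value per gene reads the amount of RNA; it does not tell spliced from unspliced Xbp1, and it does not read translation of ATF4.

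The promoters are shown first because they hold the letters through which these arms are known to act. The ER stress response element (ERSE) was searched as CCAAT and CCACG with 9 bases between them, on both strands, in RefSeq windows (GRCm38.p6) reaching from 250 bases before a gene's start to 50 after it. It was in 39 of 32851 windows over all genes, or 0.119%, and in windows of 37 of 27025 genes, or 0.137%. Of the 10 members 4 held it, Hspa5, Hsp90b1, Calr and Creld2. The motifs and the members were both chosen as known parts of this response, so these counts are a description and no enrichment was tested. The ERSE-II, searched as ATTGG and CCACG with 1 base between them, was in 0.0365% of the windows and in that of Herpud1. The C/EBP-ATF response element (CARE), the letters TGATGNAA, was in 3.97% of the windows and also in that of Herpud1. The stretches around these matches follow, 5′ to 3′ on the strand of the gene, with the fixed letters of each match in capitals. A match read from the opposite strand appears as its reverse complement, so that CGTGG comes before ATTGG for an ERSE and TTgCATCA stands for the CARE.
Hspa5, chr2:34772000-34772068, plus strand: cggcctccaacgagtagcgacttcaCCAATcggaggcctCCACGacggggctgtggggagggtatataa
Hsp90b1, chr10:86705508-86705681, minus strand: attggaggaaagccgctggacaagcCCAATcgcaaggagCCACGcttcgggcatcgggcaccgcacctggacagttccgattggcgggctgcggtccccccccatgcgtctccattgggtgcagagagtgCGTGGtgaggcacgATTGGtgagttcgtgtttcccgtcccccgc
Calr, chr8:84847050-84847118, minus strand: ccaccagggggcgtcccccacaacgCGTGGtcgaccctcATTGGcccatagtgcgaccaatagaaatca
Creld2, chr15:88819495-88819563, plus strand: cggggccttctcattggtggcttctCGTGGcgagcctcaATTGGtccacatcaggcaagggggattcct
Herpud1, chr8:94386292-94386412, plus strand: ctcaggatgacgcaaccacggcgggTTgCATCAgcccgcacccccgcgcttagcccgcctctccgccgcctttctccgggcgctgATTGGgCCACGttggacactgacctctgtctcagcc

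The ERSE of Hspa5 started 65 bases upstream of the gene's start, that of Calr 162 and that of Creld2 126. Hsp90b1 held a pair of them, starting 212 and 107 bases upstream, the nearer one on the opposite strand. In Herpud1 the CARE started 112 bases upstream and the ERSE-II 52. The unfolded protein response element TGACGTGG, in 0.676% of all windows, was in 0 of the 10. The motifs share letters: CCACG or its reverse complement CGTGG is in the ERSE, the ERSE-II and the unfolded protein response element, but no match printed here overlaps another. None of these motifs was found in the windows of Dnajb9, Pdia4, Sdf2l1, Xbp1, Edem1, Atf4 or Ddit3, which says only that these letters are not in these windows.

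**Figure D1:**
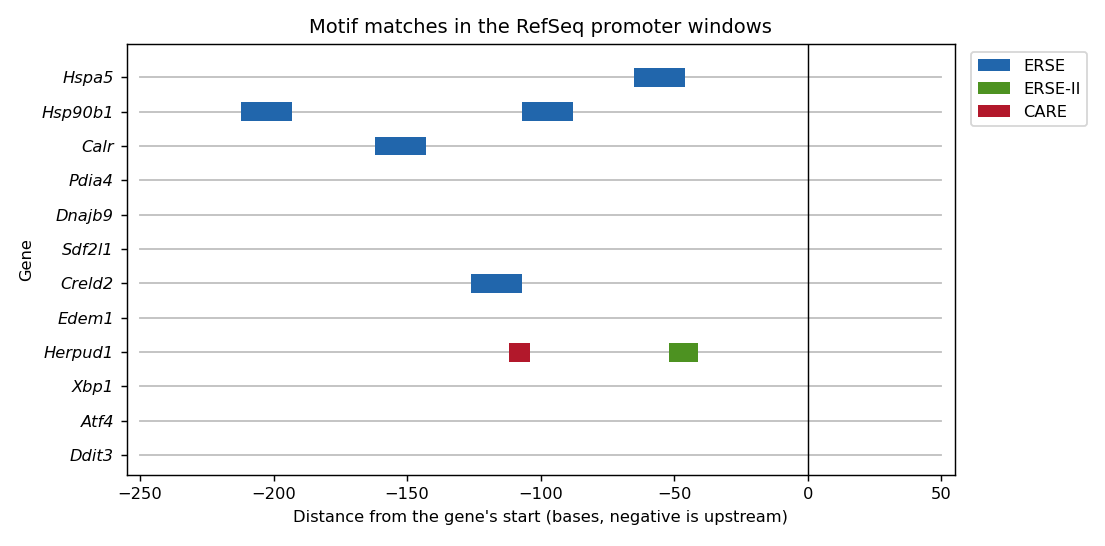
Positions of the motif matches in the RefSeq promoter windows of the 10 members, Atf4 and Ddit3, as bases from the gene's start (x axis, negative is upstream), 1 line per gene, with ERSE in blue, ERSE-II in green and CARE in red. Matches are in Hspa5, Hsp90b1, Calr, Creld2 and Herpud1 alone, all upstream of the start.

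All 10 members lay above a background of 7.47, the 95th percentile of the mean log2 intensity of 1032 olfactory receptor genes, as did 12793 of the 19613 genes. Their mean log2 intensities over the 6 arrays ran from 8.97 for Sdf2l1 to 11.59 for Calr, but probes differ in how well they bind, so these levels do not rank the genes by amount of RNA. The SD over arrays had a median of 0.105 (log2) over the 10 members, beside 0.076 over all genes above background. It was above that median of all genes for 8 members and below it for Xbp1 and Edem1. Between the array with the highest and the array with the lowest value the linear intensity differed by 1.09-fold for Xbp1 to 1.32-fold for Sdf2l1.

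Over the levels of all genes the arrays were much alike. The mean correlation of an array with the other 5 was 0.994 to 0.995 for 5 arrays and 0.992 for replicate 8. For variation over the arrays, the first principal component of genes above background held 47% of the variance, and replicate 8 weighed most on it. Replicate 8 also had the lowest median intensity, 296, beside 305 to 311 for the others. Values without replicate 8 therefore stand beside several of the results below. Pan-neuronal markers had a mean log2 intensity of 12.30 ± 0.082 (SD, n = 6), from 12.19 in replicate 4 to 12.40 in replicate 8. The motor neuron genes Olig2, Mnx1, Isl1 and Lhx3 were 4 of 4 above background. So were 4 of 8 endoderm, 4 of 7 mesenchyme and 6 of 8 glial markers, beside 65.2% of all genes, so these counts do not mark those cell types as present. A change in the number of cells of a type and a change in RNA per cell cannot be told apart in such cultures. The paper describes 6 serum samples of this model, the number of arrays here. The labels give no array or culture batch, and the paper does not say how these samples fell into batches. The p-values therefore refer to these arrays alone, and part of the covariation may be technical.

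Hspa5 encodes BiP, the HSP70 of the ER lumen that also holds the sensors inactive. Its log2 intensity was 11.07, 11.28, 11.30, 11.27, 11.27 and 11.38 in replicates 2, 4, 5, 6, 7 and 8, a mean of 11.26 ± 0.10 (SD, n = 6). Replicate 2 stood below the other 5, which ran from 11.27 to 11.38. Hsp90b1, the HSP90 of the ER (GRP94), read 11.32, 11.26, 11.37, 11.36, 11.47 and 11.54 in the same order, a mean of 11.39 ± 0.10 (SD, n = 6). Calr, the lectin chaperone and calcium store calreticulin, read 11.51, 11.44, 11.56, 11.58, 11.75 and 11.68, a mean of 11.59 ± 0.11 (SD, n = 6). Pdia4, a protein disulfide isomerase (ERp72), read 10.81, 10.70, 10.87, 10.69, 10.92 and 10.93, a mean of 10.82 ± 0.11 (SD, n = 6). In all 3 of these genes replicates 7 and 8 were the highest arrays, and replicate 4 was lowest or next to lowest.

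The co-chaperones followed other arrays. Dnajb9 (ERdj4), a J-domain partner of BiP, had log2 intensities of 9.89, 10.10, 9.89, 10.21, 9.82 and 9.97 in replicates 2, 4, 5, 6, 7 and 8, a mean of 9.98 ± 0.15 (SD, n = 6). Sdf2l1, an ER protein that works with J-domain partners of BiP, read 8.92, 8.95, 8.77, 9.17, 9.06 and 8.94, a mean of 8.97 ± 0.14 (SD, n = 6). Creld2, an ER stress-inducible protein with disulfide isomerase activity, read 9.10, 9.19, 8.96, 9.10, 9.16 and 9.03, a mean of 9.09 ± 0.083 (SD, n = 6). Replicate 6 was the highest array for Dnajb9 and Sdf2l1, and replicate 5 the lowest for Sdf2l1 and Creld2.

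Herpud1, a membrane protein of ER-associated degradation, had log2 intensities of 10.72, 10.73, 10.99, 10.66, 10.64 and 10.66, a mean of 10.73 ± 0.13 (SD, n = 6). Replicate 5 lay 1.28-fold above the lowest array on the linear scale, and without it the SD was 0.039. Xbp1, the transcription factor of the IRE1 arm, had the narrowest spread of the 10, with 11.04, 11.06, 11.11, 11.02, 10.99 and 11.01 and a mean of 11.04 ± 0.042 (SD, n = 6). Its highest array was replicate 5 and its lowest replicate 7, as for Herpud1. Edem1, a mannosidase-like protein that steers misfolded glycoproteins to degradation, read 9.06, 9.15, 9.05, 9.07, 9.02 and 9.18, a mean of 9.09 ± 0.063 (SD, n = 6). Its values had an r of 0.86 with the first principal component over all genes above background, on which replicate 8 weighs most. With the means of the endoderm, mesenchyme and glial markers above background, Edem1 had an r of -0.90, -0.88 and -0.73. Without replicate 8 these were -0.76, -0.71 and -0.40. The endoderm markers in that mean did not move together. Foxa1 was highest in replicate 8, where Apoa1, Amn and Gata6 were lowest. Their r with Ddit3 was -0.86 for Foxa1, 0.20 for Apoa1, 0.31 for Amn and 0.52 for Gata6. With the mean of the motor neuron genes, Creld2 had an r of -0.91, Herpud1 0.69 and Xbp1 0.63. Without replicate 8 these were -0.90, 0.90 and 0.83. The 4 genes in that mean did not move together. Their r with Ddit3 was 0.27 for Olig2, 0.13 for Mnx1, -0.58 for Isl1 and 0.57 for Lhx3. The part of cell content in these values was not tested.

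Atf4 had log2 intensities of 11.43, 11.68, 11.43, 11.62, 11.54 and 11.38 in replicates 2, 4, 5, 6, 7 and 8, a mean of 11.51 ± 0.12 (SD, n = 6). Ddit3 read 9.53, 9.51, 9.63, 9.27, 9.29 and 9.21, a mean of 9.41 ± 0.17 (SD, n = 6). Replicates 2, 4 and 5 thus held more Ddit3 signal than replicates 6, 7 and 8, whereas Atf4 was highest in replicates 4 and 6. Over the 6 arrays Atf4 and Ddit3 had a Pearson's r of -0.047 (exact permutation p = 0.951) and a Spearman's rho of 0.029 (exact permutation p = 1). Their r was -0.49 without replicate 8 and 0.25 without replicate 5.

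**Figure D2:**
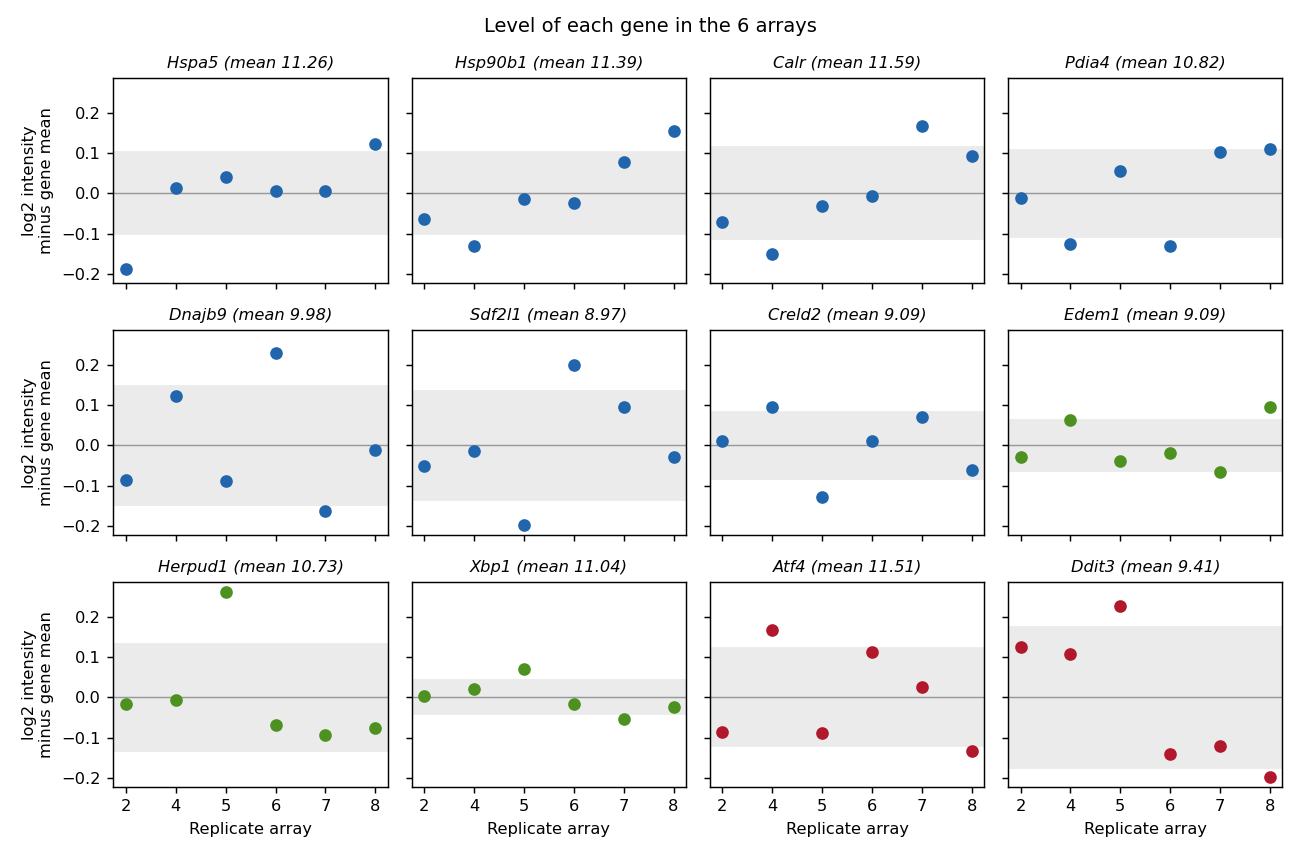
Log2 intensity minus the gene's own mean (y axis, the same scale in all panels) in each replicate array (x axis) for the 10 members, Atf4 and Ddit3; points are single arrays and the grey band is the mean ± 1 SD of the 6 arrays. Hspa5 is low in replicate 2, Herpud1 is high in replicate 5, and Ddit3 is higher in replicates 2, 4 and 5 than in replicates 6, 7 and 8.

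The members did not share 1 order of arrays. Pearson's r over the 6 arrays was positive for 20 of the 45 pairs of members and negative for 25, with a median of -0.030, beside -0.00055 over all pairs of genes above background. An r over 0.8 was found for 6.67% of the member pairs and for 5.19% of all pairs. Among the 7 members that fold proteins or assist folding (Hspa5, Hsp90b1, Calr, Pdia4, Dnajb9, Sdf2l1 and Creld2) the median of the 21 pairs was 0.18. The 4 members with an ERSE in the promoter window made 6 pairs, 3 of them positive, with a median r of 0.14 and a range from -0.37 to 0.90. The pairs share arrays and genes, so these are descriptions.

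Of the 45 pairs, 3 had an exact two-sided permutation p of r under 0.05. Herpud1 and Xbp1 had an r of 0.93, at an exact permutation p of 0.00139, the smallest that the 720 pairings of 6 arrays can give, and a rho of 1. Of all genes tested against Herpud1, 7.01% were under 0.05 by the same test, and adjusted over all of them this exact permutation p was 0.468. Hsp90b1 and Calr had an r of 0.90, at an exact permutation p of 0.0181 and 0.583 after adjustment over all genes, and 7.02% of all genes tested against Hsp90b1 were under 0.05. Dnajb9 and Pdia4 had an r of -0.84, at an exact permutation p of 0.0458 and 1.0 after adjustment, and 1.93% of all genes tested against Dnajb9 were under 0.05. With each array centred on its median, r was 0.78 for Herpud1 and Xbp1 (exact permutation p = 0.0694) and -0.66 for Dnajb9 and Pdia4 (exact permutation p = 0.158).

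**Figure D3:**
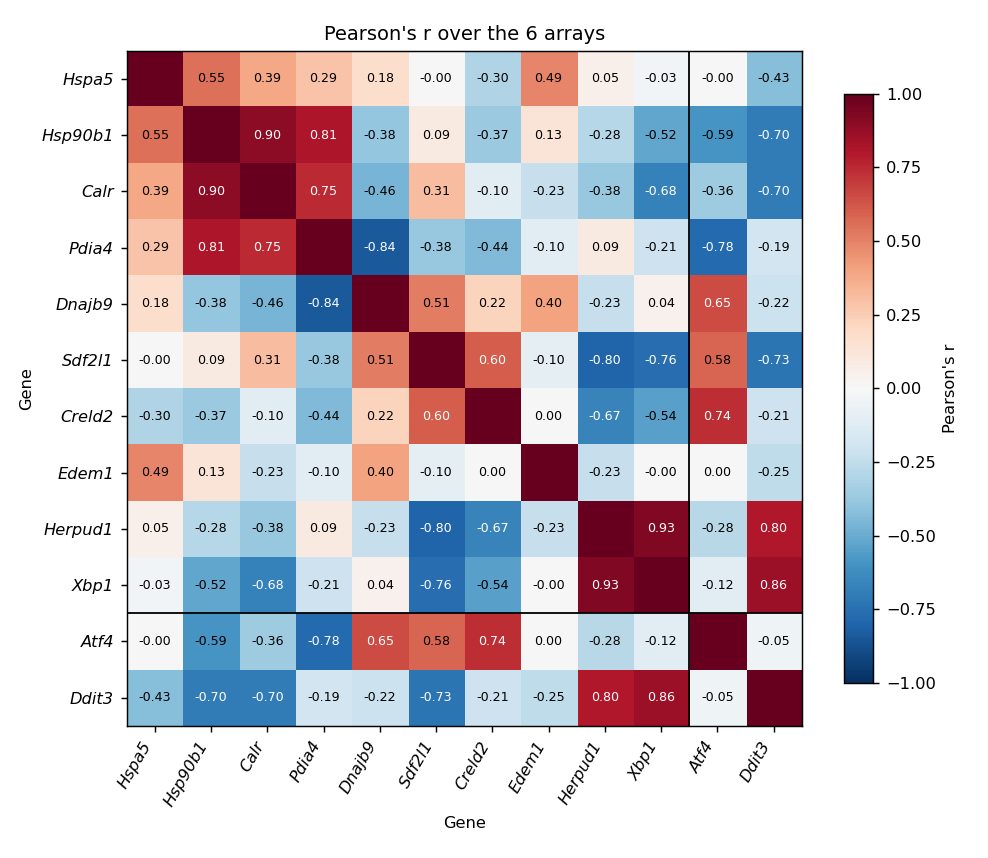
Pearson's r over the 6 arrays for each pair of the 10 members, Atf4 and Ddit3, from -1 in blue to 1 in red, with lines setting off Atf4 and Ddit3. Hsp90b1, Calr and Pdia4 form 1 positive block, Herpud1, Xbp1 and Ddit3 another, and the column of Hspa5 is pale with most members.

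Hspa5, the gene most often used to read the chaperone part of the response, was set against the other 9. In a limma regression of every gene on Hspa5, 0 of the 9 passed an adjusted p of 0.05, as did 0 of 12792 genes. At an unadjusted p under 0.05 limma also gave 0 of 9, beside 2.36% of all genes, and the exact permutation test of r gave 0 of 9, beside 3.26%. The r of the 9 with Hspa5 ran from -0.30 for Creld2 to 0.55 for Hsp90b1 (exact permutation p = 0.614 and 0.254), with a median of 0.18, beside -0.024 over all genes. Without replicate 8 the r with Hsp90b1 was 0.22.

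Set beside Atf4, the folding genes fell on both sides of 0. The limma regression on Atf4 called 0 of the 10 members and 0 of 12792 genes at an adjusted p under 0.05. At an unadjusted p under 0.05 it held 2 of the 10, Pdia4 and Dnajb9, beside 5.46% of all genes, and the exact permutation test of r held 0 of the 10, beside 4.64%. The lowest r was that of Pdia4, at -0.78 (exact permutation p = 0.101), with a rho of -0.77 (exact permutation p = 0.103). Hsp90b1 had -0.59 and Calr -0.36, whereas Creld2 had 0.74, Dnajb9 0.65 and Sdf2l1 0.58 (exact permutation p from 0.0972 to 0.474 over the 5). Hspa5 and Edem1 stood at -0.0044 and 0.00060, Xbp1 at -0.12 and Herpud1 at -0.28. With each array left out in turn, these 4 ran from -0.79 to 0.44 for Hspa5, from -0.50 to 0.67 for Edem1, from -0.38 to 0.31 for Xbp1 and from -0.53 to 0.24 for Herpud1, so their direction with Atf4 is not settled. Without replicate 8, Hspa5 had 0.44 and Edem1 0.67, while Pdia4 had -0.70 and Creld2 0.70. The r of Pdia4 with Atf4 was 0.20 without replicates 4 and 6, the 2 arrays farthest from the median of Atf4, so it rests on them. The same step left Creld2 at 0.73 and Sdf2l1 at 0.62, but turned Dnajb9 to -0.95, Calr to 0.54 and Edem1 to -0.77.

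Set beside Ddit3, all 7 folding genes had a negative r and Herpud1 and Xbp1 a positive one. Over all genes, 5822 of 12792 had a negative r with Ddit3. The r of the 7 ran from -0.73 for Sdf2l1 to -0.19 for Pdia4, with a median of -0.43, beside 0.067 over all genes, and Hsp90b1 and Calr both had -0.70. For none of the 7 was the exact permutation p of r under 0.05 (0.0931 to 0.661). The 7 share arrays, and some turned sign with 1 array left out. Pdia4 had an r of 0.12 without replicate 8, Creld2 0.53 without replicate 5 and Dnajb9 0.13 without replicate 6. Edem1 had an r of -0.25. Sdf2l1 had an r of -0.96 without replicate 8 (exact permutation p = 0.00833) and of -0.51 without replicate 5 (exact permutation p = 0.35).

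Herpud1 had an r of 0.80 with Ddit3 (exact permutation p = 0.0125) and a rho of 0.77 (exact permutation p = 0.103). Xbp1 had an r of 0.86 (exact permutation p = 0.0194) and the same rho. Both were highest in replicate 5, where Ddit3 was also highest, and both were higher in replicates 2 and 4 than in 6, 7 and 8. Adjusted over all genes these exact permutation p were 0.551 and 0.587. Without replicate 5 the r of Herpud1 was 0.92 (exact permutation p = 0.075), and without replicate 8 it was 0.81 (exact permutation p = 0.0333). Without replicates 5 and 8, the 2 farthest from the median of Ddit3, it was 0.95. Xbp1 had 0.76, 0.88 and 0.80 in the same 3 cases, and 0.66 with each array centred on its median (exact permutation p = 0.185). Whether the r of Herpud1 or Xbp1 differed from that of the folding genes was not tested.

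The limma regression on Ddit3 called 0 of the 10 members and 0 of 12792 genes at an adjusted p under 0.05. At an unadjusted p under 0.05 it held 4 of the 10, Herpud1, Sdf2l1, Calr and Hsp90b1, beside 7.26% of all genes. The exact permutation test of r held 2 of the 10, Herpud1 and Xbp1, beside 7.48%. The mean of the pan-neuronal markers moved with these genes. Its r was -0.84 with Ddit3, -0.82 with Xbp1 and -0.62 with Herpud1. It was 0.89 with Hsp90b1, 0.91 with Calr, 0.63 with Pdia4 and 0.23 with Hspa5. Without replicate 8 these were -0.76, -0.84, -0.59, 0.85, 0.91, 0.49 and -0.14 in the same order, so that of Hspa5 turned sign. All 6 of the 6 markers had a negative r with Ddit3, beside 5822 of 12792 genes. The part of neuron content in these relations was not tested.

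**Figure D4:**
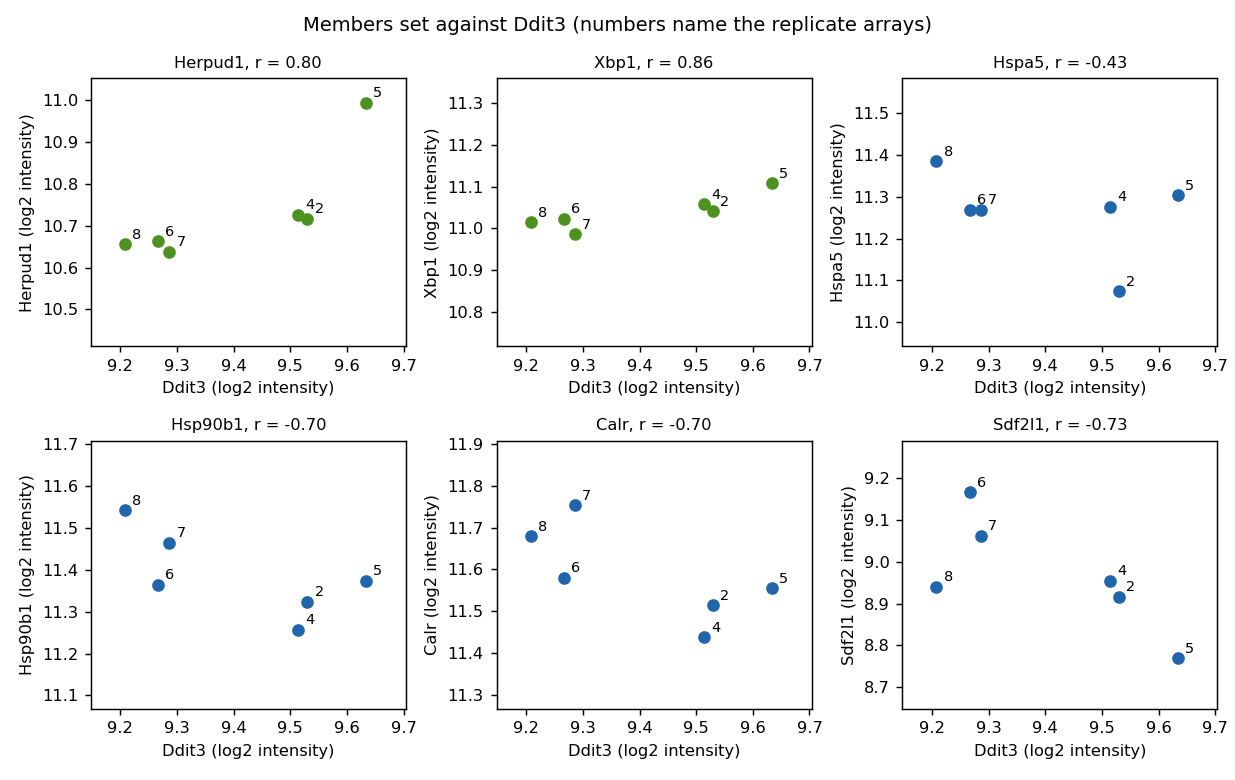
Log2 intensity of 6 members (y axes, all spanning the same log2 range) against that of Ddit3 (x axes), with each point an array named by its replicate number. Herpud1 and Xbp1 are highest in replicate 5, where Ddit3 is highest, while Hsp90b1, Calr and Sdf2l1 have a negative r with Ddit3.

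Genes downstream of ATF4 and CHOP were set against the members in turn. PERK and other kinases feed into ATF4, and the part of PERK in their levels was not tested. A list of 12 targets of ATF4 and CHOP, among them Asns, Trib3, Chac1, Atf3 and Ppp1r15a, lay wholly above background. Its mean log2 intensity was 10.40, 10.50, 10.41, 10.36, 10.19 and 10.19 in replicates 2, 4, 5, 6, 7 and 8, so that replicates 7 and 8 were lowest, the arrays in which Hsp90b1, Calr and Pdia4 were highest. With Ddit3, 11 of the 12 had a positive r, with a median of 0.66, beside a median of 0.067 and 6970 positive of 12792 over all genes. Of the 12, 2 passed the exact permutation test, Cebpb with an r of 0.85 and Sesn2 with 0.83, beside 3.4% of all genes passing with a positive r. With Atf4 10 of 12 were positive, beside 6474 of 12792 genes, with a median of 0.42, beside 0.0082 over all genes. The 12 ran from -0.22 for Cebpb to 0.65 for Nupr1, and 0 passed, beside 4.64% of all genes. With Hspa5 11 of 12 were negative, beside 6662 of 12792 genes, with a median of -0.35, beside -0.024 over all genes. The range was from -0.80 for the asparagine synthetase gene Asns to 0.030 for Sesn2. Without replicate 8 the medians of the 12 were 0.58 with Ddit3, 0.14 with Atf4 and -0.085 with Hspa5. The mean of the 12 had an r of 0.77 with Ddit3 (exact permutation p = 0.115) and 0.44 with Atf4 (exact permutation p = 0.371). These were 0.66 and 0.19 without replicate 8.

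Calr had an r of -0.97 with the mean of the 12 targets (exact permutation p = 0.00278) and a rho of -0.94 (exact permutation p = 0.0167). Leaving out each array in turn kept its r between -0.99 and -0.95. Hsp90b1 had an r of -0.95 (exact permutation p = 0.0111) and a rho of -0.77 (exact permutation p = 0.103). Without replicate 8 its r was again -0.95 (exact permutation p = 0.05), and without replicate 4 it was -0.92 (exact permutation p = 0.0667). Without replicates 7 and 8, the farthest from the median of the target mean, the r was -0.96 for Calr and -0.90 for Hsp90b1. By the exact permutation test of r, these 2 were the members under 0.05 of the 10 tested, beside 6.39% of all genes. A lower r than that of Calr was found for 20 of 12781 genes. Adjusted over all genes these exact permutation p were 0.542 and 0.566.

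Pdia4 had an r of -0.76 with the target mean (exact permutation p = 0.0847), but -0.23 without replicates 7 and 8. Hspa5 stood at -0.40 and Sdf2l1 at -0.28, whereas Xbp1 had 0.72, Herpud1 0.47 and Dnajb9 0.43 (exact permutation p from 0.0958 to 0.603 over the 5). By rho, however, Herpud1 and Xbp1 both had 0.94 with the target mean (exact permutation p = 0.0167), as large as that of Calr and of opposite sign. Their r was 0.90 and 0.92 without replicate 5, but 0.0092 and 0.24 without replicates 7 and 8. Over the 10 members the median r was -0.13, with 5 negative, beside 0.065 over all genes. The r of the 12 targets with Calr ran from -0.97 for Atf5 to -0.32 for Cebpb, with a median of -0.86. Edem1 and Creld2 stood at 0.027 and 0.12, but at 0.82 and -0.12 without replicate 8. The pan-neuronal mean itself had an r of -0.96 with the target mean, so the arrays with more neuron marker signal were those with less signal of the targets and more of Calr and Hsp90b1. The part of neuron content in these relations was not tested.

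The other genes of ER folding, a list of 20 that includes Hyou1, Canx, Manf and further disulfide isomerases, were all above background. Their r with Ddit3 had a median of 0.019, with 10 positive and 10 negative, and 0 passed the exact permutation test with a positive r and 2 with a negative one, Uggt1 (-0.86) and Pdia6 (-0.82), beside 3.4% and 4.08% of all genes. Without replicate 8 the median with Ddit3 was 0.35. With Atf4 the median was -0.18, from -0.79 for Hyou1, an HSP70-related exchange factor of BiP, to 0.58 for Cdnf, a neurotrophic factor of the ER. With Hspa5 it was -0.066, from -0.70 for Ero1lb, an oxidase of disulfide isomerases, to 0.67 for Dnajc10, a J-domain reductase.

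In ER-associated degradation, the 15 listed genes found, all above background, had a median r of 0.16 with Atf4, -0.21 with Ddit3 and 0.22 with Hspa5. All 3 medians changed sign without replicate 8, to -0.042, 0.16 and -0.11. With Atf4 the range was from Derl2 (-0.80, exact permutation p = 0.0278) to Faf2 (0.63). With Hspa5 it was from the lectin gene Os9 (-0.97, exact permutation p = 0.00694) to Ubxn4 (0.52). Os9 and Erlec1 were highest in replicate 2 (log2 intensity 9.72 and 9.69), the array in which Hspa5 was lowest. Their r without replicate 2 was not computed. Of the 15, 2 passed with a negative r with Atf4, Derl2 and Ubxn4, 2 with Hspa5, Os9 and Erlec1, and 1 with Ddit3, Edem2, beside 2.95%, 1.4% and 4.08% of all genes with Atf4, Hspa5 and Ddit3. The 14 genes of translocation and early secretion above background had medians of 0.094 with Atf4, -0.14 with Ddit3 and 0.033 with Hspa5, the one with Ddit3 turning to 0.11 without replicate 8. With Atf4 they ran from Sec62 (-0.62) to Ssr2 (0.93), and with Hspa5 from Spcs1 (-0.76) to Sec31a (0.81). Of the 14, 1 passed with each of Atf4, Ddit3 and Hspa5, namely Ssr2, Sec61g and Sec31a, all with a positive r, beside 1.68%, 3.4% and 1.86% of all genes.

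The sensors and their processing enzymes were above background in 6 of 6 cases found, and Atf6 was not analysed here. Ern1, which encodes IRE1, had a mean log2 intensity of 9.16 ± 0.073 (SD, n = 6) and an r of 0.023 with Atf4, 0.75 with Ddit3 and 0.077 with Hspa5. Eif2ak3, which encodes PERK, had 8.34 ± 0.11 (SD, n = 6) and an r of -0.73, -0.063 and 0.43. Atf6b, the relative of ATF6, had 9.45 ± 0.061 (SD, n = 6) and an r of -0.41, 0.27 and 0.62. The proteases that cut ATF6, Mbtps1 and Mbtps2, had an r with Ddit3 of 0.51 and 0.17, with Atf4 of -0.42 and -0.17, and with Hspa5 of -0.30 and -0.34. D10Wsu52e, the array's name for Rtcb, the ligase that joins spliced Xbp1, had 0.28 with Atf4, -0.19 with Ddit3 and -0.61 with Hspa5. No sensor passed the exact permutation test of r with Atf4, Ddit3 or Hspa5 (p from 0.0792 to 0.964).

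**Figure D5:**
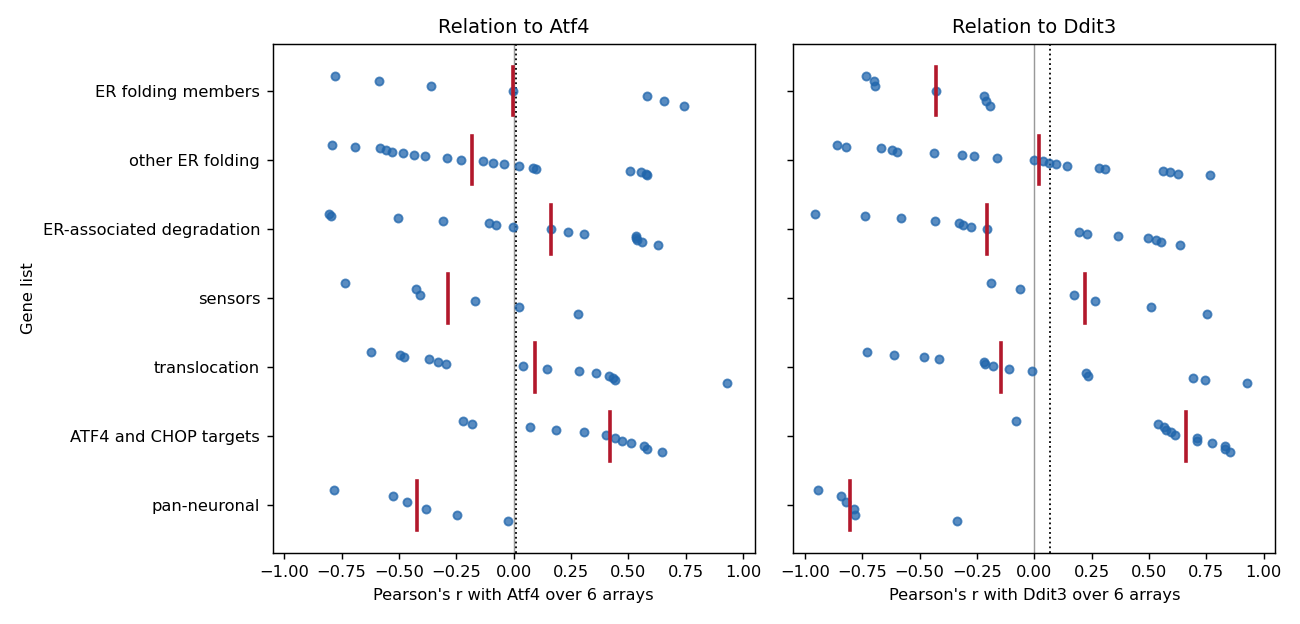
Pearson's r over the 6 arrays with Atf4 (left) and with Ddit3 (right) for each gene above background of 7 gene lists (y axis); points are genes, red bars the list medians, and the dotted line the median of all genes. The 7 folding members lie below 0 with Ddit3, while 11 of 12 ATF4 and CHOP targets lie above it and the 6 pan-neuronal markers below.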

How the data were processed

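RNA of 1 group of embryoid body cultures was measured on 6 mouse exon arrays. The deposited values are linear intensities, which the authors made with the Aroma Affymetrix package by Robust Multi-array Averaging (RMA: background correction, quantile normalization and summarisation), averaging the exons of each gene, per the study's methods. The submitters' processing notes name Affymetrix Expression Console and RMA. Which arrays were normalized together and the genome build are not given in the sources used here, and a screen for outlying arrays that the study applied may have covered this group. Values were taken to log2 without a pseudocount. The 10 members, the gene lists and the motifs were chosen with earlier results of these data known, the motifs and the relations to the mean of the ATF4 and CHOP targets after the values had been seen.

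Genes above the 95th percentile of the mean level of 1032 olfactory receptor genes were kept. Every other such gene was regressed on Atf4, Ddit3 and Hspa5 with limma 3.58.1 (lmFit, eBayes with a trend) in R 4.3.3, with Benjamini-Hochberg adjustment over all genes. Pearson's r and Spearman's rho were tested two-sided by exact permutation over all 720 pairings of the 6 arrays. The smallest p this allows is 0.00139, and 6 arrays limit the precision. The code was tested on simulated data. Alternatives were array scaling, scale, filter, a principal component as covariate, left-out arrays and the test. Named were all members, Atf4, Ddit3, the sensors, the genes of each list with the highest and lowest r with Atf4 and Hspa5, and the 5 genes most like the members' standardised mean and Hspa5. Other genes of the lists were named after their values were seen. Motifs were searched in RefSeq promoter windows. Some list genes were matched under older symbols, and Derl1, Atf6, Ssr3 and Srpra were not analysed here.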

Additional observations from a re-analysis of the deposited data

Results flagged for a closer look

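In Hspa5, replicate 2 lay below the other arrays by 0.626 of the whole range of the 6 log2 intensities, just past the critical value of Dixon's test for 6 values. In Herpud1, replicate 5 lay above the other arrays by 0.751 of the range. Of 25 gene and list levels screened in this way, 2 were past the critical value, where chance would give about 1.25.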

How the results depend on the processing

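The counts of members called with Atf4, Ddit3 and Hspa5 were 0 under all alternatives except 2. The exact permutation test of Pearson's r, without adjustment, held 2 members with Ddit3, Herpud1 and Xbp1. With replicates 2 and 8 left out, those farthest from the middle of Hspa5, limma called 1 member with Hspa5, Herpud1, over 4 arrays, beside 71 of 12792 genes. The median r over the 45 pairs, -0.030 as reported, was 0.084 with each array centred on its median, 0.037 with the first principal component as a covariate and -0.086 as Spearman's rho, and ran from -0.12 to -0.00081 when each array was left out in turn, lowest without replicate 2. The cause was not tested. The relations of Herpud1 and Xbp1 to Ddit3 and the 3 pairs of members past the exact permutation test kept their direction under each alternative run for them, and the relations of the list genes were not run under alternatives other than left-out arrays for their medians. With each array centred on its median, the r of Xbp1 with Ddit3, of Xbp1 with Herpud1 and of Pdia4 with Dnajb9 were no longer past the threshold. With an array left out, that was so for Pdia4 with Dnajb9 in 5 of 6 cases (exact permutation p from 0.0833 to 0.158), Calr with Hsp90b1 in 4 (0.05 to 0.0833), Xbp1 with Ddit3 in 3 (0.05 to 0.158), Herpud1 with Ddit3 in 2 (0.075 and 0.0917) and Xbp1 with Herpud1 in 0. Of the 27 relations of members to Atf4, Ddit3 and Hspa5 that did not pass, 14 turned sign under at least 1 setting, with 0 past the threshold there. No paired analysis was possible because the arrays form 1 group. The relations to the mean of the ATF4 and CHOP targets were examined under alternatives chosen after seeing the data, where r ran from -0.998 to -0.94 for Calr and from -0.99 to -0.84 for Hsp90b1, the latter with median centring. The member nearest to the background of 7.47 was Sdf2l1, at 8.97 on the log2 scale.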

Other observations

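The genes whose pattern over the 6 arrays was most like the mean of the 10 standardised members were Lrrc16b, Tor1aip1, Arhgef26, Srsf2 and Gsr, each with an r of 0.98. Lrrc16b had a log2 intensity of 9.55 in replicate 2, the lowest, and 9.64 in replicate 8, the highest. The genes most like Hspa5 were B230312A22Rik, Ecsit, Katnal2, Cd68 and Fibp, with an r from 0.97 for Fibp to 0.99 for B230312A22Rik. All are the highest correlations over 6 arrays among the genes above background other than the 10 members, given as a description. The genes named for Hspa5 were each lowest in replicate 2, the array in which Hspa5 was lowest.

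Of the other folding genes, Canx, the membrane-bound lectin chaperone calnexin, had an r of 0.89 with Sdf2l1, and Fkbp2, a prolyl isomerase of the ER, had -0.94. Sel1l, the scaffold of the degradation ligase, had an r of -0.93 with Hsp90b1. Uggt1, the glucosyltransferase that senses folding of glycoproteins, had 0.90 with Calr and 0.88 with Hsp90b1. These genes were picked after their values were seen, among many relations, and were not tested.

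Among the motifs, the CARE was in the promoter windows of 6 of the 12 ATF4 and CHOP targets, Asns, Trib3, Chac1, Atf3, Vldlr and Nupr1, beside 4.51% of all genes. The ERSE was in 0 of the 12. Of the 17 other folding genes with a window in the table, 4 held an ERSE, namely Dnajc3, Canx, Pdia6 and Ero1b, and of 12 degradation genes Syvn1 and Derl3 did, beside 0.137% of all genes. No enrichment was tested for these lists.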
